A study of Mus musculus with 6 samples.

Results

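The matrix metalloproteinases (MMPs), the ADAMTS and ADAMTS-like proteins and the tissue inhibitors of metalloproteinases (TIMPs) were examined in fetal mouse lung with and without Carm1. They were taken as every array probe set whose single platform gene symbol was an Mmp, Adamts, Adamtsl or Timp gene, which gave 78 of 45101 probe sets. These stood for 42 genes, of which 18 were MMPs, 15 ADAMTS proteases, 5 ADAMTS-like proteins and 4 TIMPs. The rule used gene names only and no measured value, but it was set with earlier results of these data known.

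Total lung RNA was hybridised to 6 Affymetrix mouse arrays, 3 labelled as wild type and 3 as knockout of Carm1, the gene of an arginine methyltransferase that acts as a transcriptional coactivator. The design text places both genotypes at embryonic day 18.5, as do the knockout samples' own labels, whereas the wild-type samples' labels call the tissue neonatal, so genotype and a possible age difference cannot be told apart. The labels give no strain, no account of how the Carm1 allele was disrupted and no litter or pooling, so the p-values below rest on the spread between arrays, which may be technical. Each value is a MAS5 signal, a linear brightness combined over probes near a transcript's 3' end, and signals of different probe sets cannot be ranked against each other.

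MMPs are zinc-dependent proteases that cut collagens, elastin and other matrix proteins, and some of them sit in the cell membrane. ADAMTS proteases are secreted relatives that bind to the matrix through thrombospondin repeats and cut proteoglycans such as versican or mature procollagens, while ADAMTS-like proteins carry the binding repeats without a protease domain. TIMPs block the active site of MMPs. Timp3 also inhibits several ADAM and ADAMTS proteases and stays bound to the matrix, and mice without it are known to develop enlarged airspaces.

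The clearest difference between the genotypes in this group lay in Timp3. All 4 of its probe sets were lower in every knockout array than in any wild-type array, at 46.9% to 64.0% of the wild-type level. Adamts15, Adamts10 and Adamtsl4 were also lower and Adamts5 and Mmp23 higher at an unadjusted p under 0.05. No member passed the adjusted threshold over all tested probe sets (limma, Benjamini-Hochberg adjusted p under 0.05), and the smallest adjusted p was 0.0909 for Timp3. Over all probe sets 8 of 27022 passed, or 0.0296%.

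The target gene was measured by a single probe set that may cross-hybridise. The Carm1 signal was 814, 678 and 865 in wild type replicates 1 to 3 and 395, 374 and 511 in knockout replicates 1 to 3, so the genotypes did not overlap, and the difference was −0.89 on the log2 scale (SE 0.16, adjusted p = 0.105). The labels do not say whether its probes fall within the disrupted sequence. The arrays differed beyond their genotype. Sex as read from the arrays was male for wild type replicate 3 and knockout replicate 2 and female for the other 4 arrays. The probe sets for bacterial control RNA had median signals of 609 and 379 on wild type replicates 1 and 3 and 4.29 to 11.4 on the other 4 arrays, which leaves only wild type replicate 2 and the 3 knockouts for a comparison without it. Wild type replicate 2 and knockout replicate 1 also stood apart together: the liver-made plasma protein genes Plg and A2m read 2359 and 1985 on the first and 4291 and 1730 on the second, against 53.6 to 178 and 98.7 to 147 on the other 4 arrays. The first principal component placed these arrays at 29.7 and 54.0, and knockout replicates 2 and 3 at −14.6 and 18.3. Wild type replicates 1 and 3, the arrays with bacterial control RNA, lay at the other end, at −41.1 and −46.3. On this component wild type replicate 2 lay nearer to knockout replicate 3 than to knockout replicate 1. Knockout replicate 3 had the highest cartilage marker signal, a sum of 12534 over 7 chondrocyte markers against 935 to 1571 on the other arrays. Its summed signal over 7 muscle markers was 57326 against 1783 to 16233 elsewhere. Neutrophil markers were highest on knockout replicate 1. As a check of the tissue, all 9 measured alveolar type II markers lay above the signal threshold, with sums of 136701 to 190267.

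Probe sets were tested where their mean log2 signal lay above the 40th percentile of the array, a signal of 59.7. Of the 78 member probe sets 51 passed, standing for 31 genes, and 27 did not. At least 1 probe set was tested for 10 of 18 MMPs, 12 of 15 ADAMTS genes, all 5 ADAMTS-like genes and all 4 TIMPs. The untested genes were Mmp1a, Mmp1b, Mmp3, Mmp7, Mmp10, Mmp12, Mmp13, Mmp20, Adamts18, Adamts19 and Adamts20. A probe set under the threshold shows that the transcript was not resolved from dim signals by these probes, not that it was absent.

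**Figure D1:**
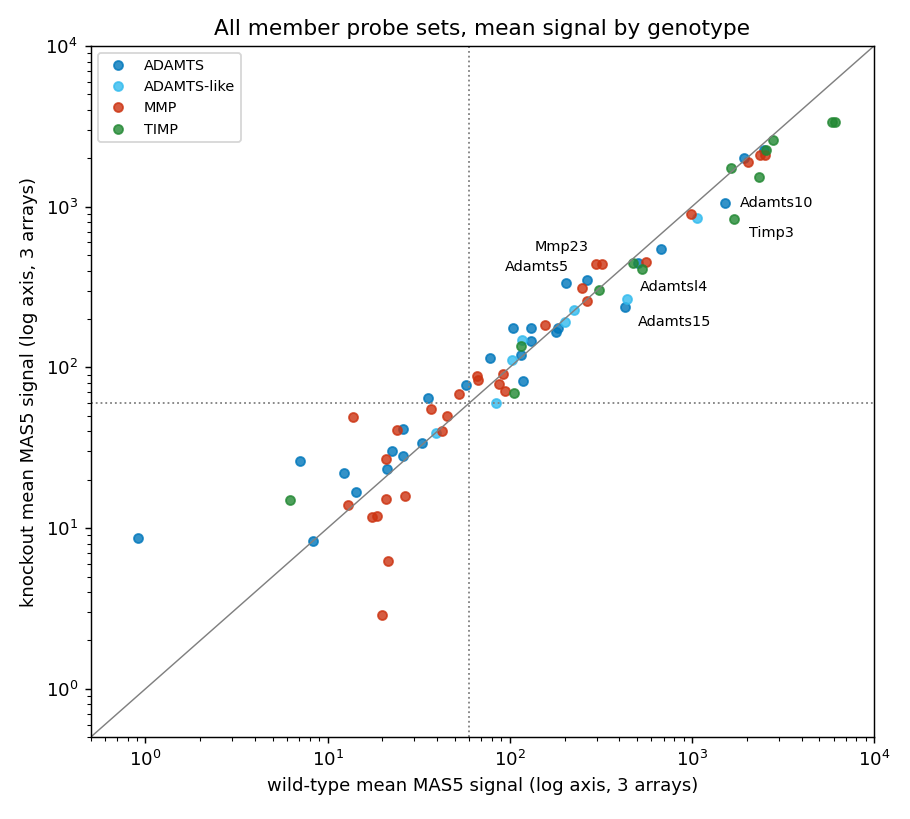
Mean MAS5 signal of each of the 78 member probe sets in wild type (x axis, log scale) against knockout (y axis, log scale), 3 arrays each, coloured by family. The solid line marks equal signal, the dotted lines the test threshold of 59.7, and the named Timp3 point is 1 of 4 probe sets of that gene, all 4 below the line.

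The untested MMPs share a place in the genome. In RefSeq's gene order of the mouse assembly GRCm38.p6, chromosome 9 holds 9 of the member MMPs within a run of 10 protein-coding genes from Mmp13 to Mmp7. Mmp8, the neutrophil collagenase, was the 1 gene of this run that passed the threshold. The other 8 had signals of 1.23 to 76.9 on single arrays, and they comprise the collagenases Mmp1a, Mmp1b and Mmp13, the stromelysins Mmp3 and Mmp10, the macrophage elastase Mmp12, the enamel protease Mmp20 and the matrilysin Mmp7. The elastase Mmp12, which degrades the elastic fibres of the airspace wall, had signals of 22.0, 4.86 and 12.2 in wild type replicates 1 to 3 and of 17.9, 21.4 and 2.61 in knockout replicates 1 to 3. No genotype stood out among these values.

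The stretches before the start sites set the run apart as well, and 5 are shown because they contrast dim MMPs with members that gave a signal. RefSeq promoter windows for GRCm38.p6 were found for 27 of the 42 genes, in 30 windows, and the 250 bases before each start were searched on both strands for 6 motifs. These were the AP-1 motif TGANTCA, the TATA box TATAAA, the GC box GGGCGG, the CCAAT box CCAAT, a palindromic glucocorticoid element and the ETS motif CCGGAAG, where N is any base. Capitals below mark the matches, each sequence runs 5′ to 3′ on the strand of the gene, and no marked matches overlap. Mmp13 lies at chr9:7272264-7272513 (plus strand), Mmp3 at chr9:7445572-7445821 (plus), Mmp8 at chr9:7558179-7558428 (plus), Timp3 at chr10:86300162-86300411 (plus) and Adamtsl4 at chr3:95687918-95688167 (minus).
Mmp13: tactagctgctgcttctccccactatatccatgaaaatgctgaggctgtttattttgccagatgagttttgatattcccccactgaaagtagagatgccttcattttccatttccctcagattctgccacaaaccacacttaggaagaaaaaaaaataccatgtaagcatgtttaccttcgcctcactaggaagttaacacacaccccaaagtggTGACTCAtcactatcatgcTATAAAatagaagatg
Mmp3: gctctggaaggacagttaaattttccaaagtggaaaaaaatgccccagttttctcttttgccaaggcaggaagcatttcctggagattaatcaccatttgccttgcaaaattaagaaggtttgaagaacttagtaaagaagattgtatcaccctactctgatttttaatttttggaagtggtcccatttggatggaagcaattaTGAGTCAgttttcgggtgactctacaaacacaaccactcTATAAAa
Mmp8: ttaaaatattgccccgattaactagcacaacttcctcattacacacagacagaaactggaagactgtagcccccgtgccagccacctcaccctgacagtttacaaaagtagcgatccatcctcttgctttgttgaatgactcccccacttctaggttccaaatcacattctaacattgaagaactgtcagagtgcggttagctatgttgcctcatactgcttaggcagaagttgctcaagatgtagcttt
Timp3: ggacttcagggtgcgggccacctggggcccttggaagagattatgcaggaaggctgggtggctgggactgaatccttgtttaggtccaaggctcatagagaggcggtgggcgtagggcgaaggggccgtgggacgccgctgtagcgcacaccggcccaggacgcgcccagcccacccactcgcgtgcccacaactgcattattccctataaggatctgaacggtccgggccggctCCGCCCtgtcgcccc
Adamtsl4: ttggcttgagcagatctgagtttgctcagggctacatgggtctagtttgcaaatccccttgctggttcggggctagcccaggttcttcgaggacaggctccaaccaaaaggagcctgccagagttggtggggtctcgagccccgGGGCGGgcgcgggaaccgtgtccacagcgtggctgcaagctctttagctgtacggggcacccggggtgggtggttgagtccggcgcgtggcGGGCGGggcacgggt
The AP-1 match of Mmp13 begins 35 bases and its TATA box 16 bases before the start, and in Mmp3 they begin 46 and 7 bases before it. The Mmp8 window holds none of the 6 motifs. In Timp3 the marked letters are a GC box on the opposite strand that begins 15 bases before the start, and Adamtsl4 has GC boxes that begin 106 and 15 bases before it.

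An AP-1 match stood in a window of 8 of the 9 genes of the run on chromosome 9, all but Mmp8. Each of those 8 was under the signal threshold. Among the 17 tested member genes with a window, 0 held an AP-1 match, and the motif occurs in 6.75% of all 32851 windows of the same length. The untested Adamts18 and Adamts20, which lie outside the run, held none either, so the match went with the run and not with dim signal as such. Tested genes without a window, among them Mmp2, Mmp9 and Adamts5, could not be searched. A TATA box stood beside the AP-1 match in 7 of the 8 genes of the run, all but Mmp12, and occurs in 12.4% of all windows. It was also found in the tested genes Adamts1 and Adamtsl2. The GC box was in 15 of the 30 member windows and in 32.7% of all, and the CCAAT box in 6 member windows and 33.8% of all. The glucocorticoid element and the ETS motif were in 0 of the 30 and in 0.387% and 6.91% of all windows. These matches describe letters in the windows and no binding was measured.

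Across the 51 tested member probe sets, 31 were lower and 20 higher in knockout, with a median log2 difference of −0.097, beside 0.019 over all tested probe sets. An unadjusted p under 0.05 was reached by 10, which is 19.6% against a background of 13.6% of all tested probe sets. Of these 7 were lower, where the background is 6.31%, and 3 higher, where it is 7.32%. Timp3 alone gave 4 of the 10, and without it 6 of 47 remained, or 12.8%. The genotypes did not overlap in 14 probe sets, against a background of 20%, with 8 lower (background 9.36%) and 6 higher (background 10.7%). The share of members that differed, once Timp3 was set aside, was thus near that of the array as a whole.

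**Figure D2:**
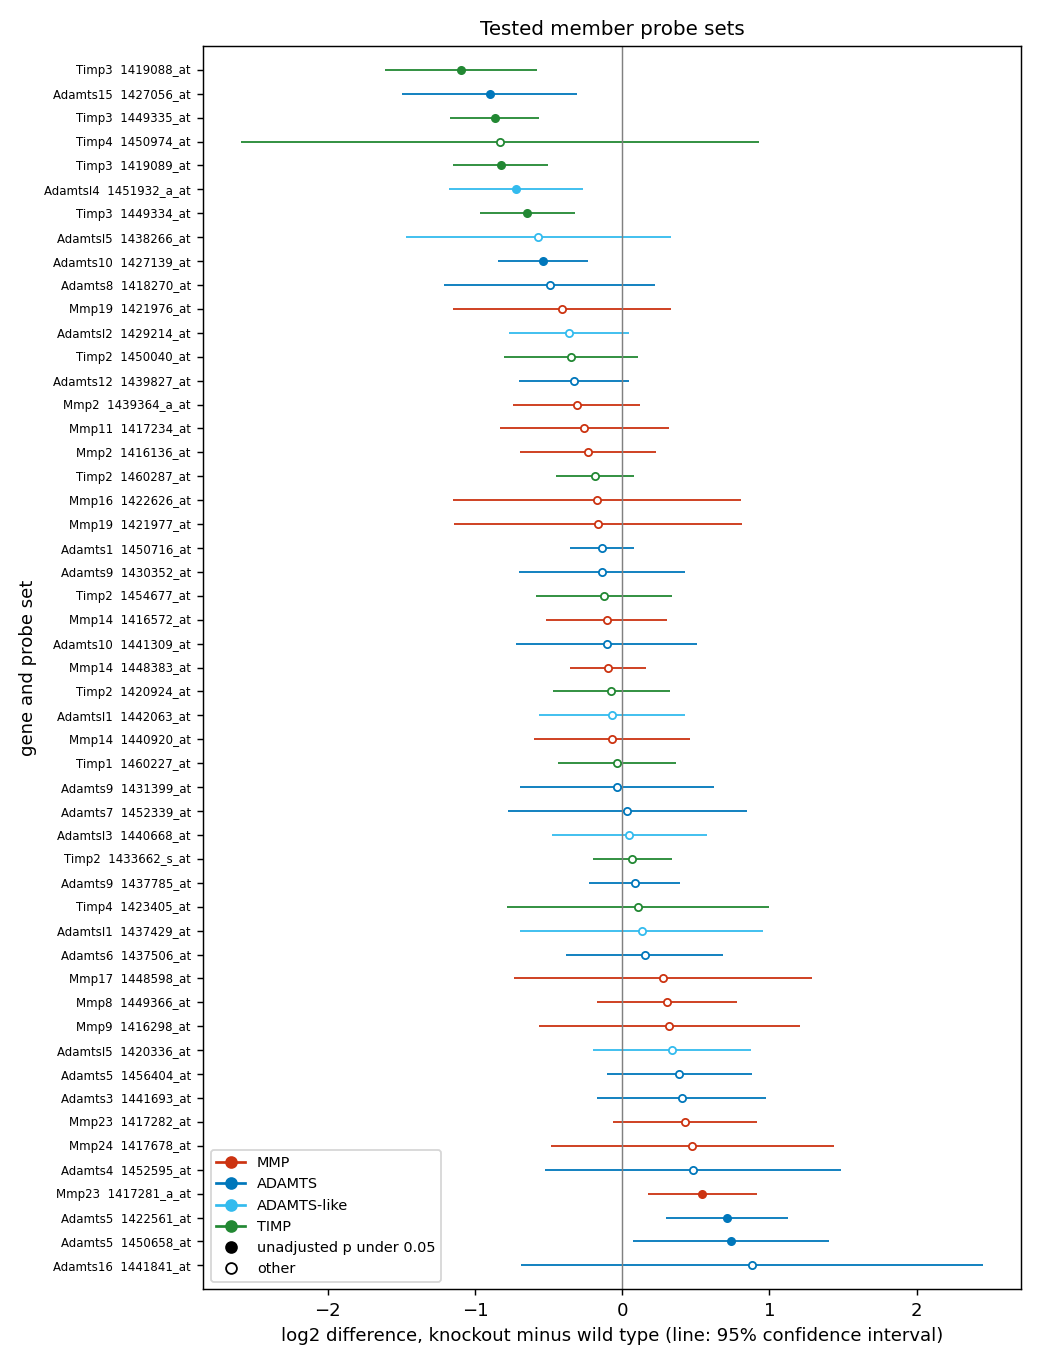
Log2 difference between knockout and wild type (x axis) for each of the 51 tested member probe sets (y axis, in order of the difference), with its 95% confidence interval from the limma fit, coloured by family. Filled points mark the 10 probe sets with an unadjusted p under 0.05, which include all 4 of Timp3.

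Timp3 was lower at each of its probe sets, with log2 differences from −1.09 to −0.64. All were designed on the same transcript sequence and are thus not independent of each other. At 1449335_at the signal was 6534, 6722 and 5131 in wild type replicates 1 to 3 and 3366, 3747 and 2954 in knockout replicates 1 to 3. The second bright probe set, 1419089_at, read 6338, 6359.6 and 5038 in wild type and 3379, 3855 and 2804 in knockout. Both show knockout replicate 3 lowest and knockout replicate 2 highest among the knockouts, and no overlap with wild type. Signals at 1419088_at were 1721, 1769 and 1639.5 in wild type and 892, 1083 and 532 in knockout. Those at 1449334_at were 2493, 2383 and 2175 against 1524, 1796 and 1239. The order of the 3 knockouts was the same at all 4 probe sets, with replicate 2 above replicate 1 and replicate 3 lowest.

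Expressed as a share of wild type, Timp3 in knockout lung was at 54.9% at 1449335_at, with a 95% confidence interval from 44.5% to 67.7% (log2 −0.87, SE 0.13, adjusted p = 0.0909). At 1419089_at it was 56.5% (interval 45.2% to 70.5%, log2 −0.82, SE 0.14, adjusted p = 0.0934). The share was 46.9% at 1419088_at (interval 32.8% to 67.0%) and 64.0% at 1449334_at (interval 51.3% to 79.9%), with adjusted p of 0.130 and 0.136. Permuting the arrays gave an exact two-sided p of 0.1 for each, the smallest that 3 arrays against 3 allow. The lowest p placed 1449335_at at rank 34 of 27022 probe sets. Against wild type replicate 2, the wild-type array free of bacterial control RNA, the 4 differences were −1.01, −0.94, −1.14 and −0.67 on the log2 scale in the order 1449335_at, 1419089_at, 1419088_at and 1449334_at. Without knockout replicate 3, the array with the high cartilage and muscle markers, they were −0.78, −0.70, −0.80 and −0.50.

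**Figure D3:**
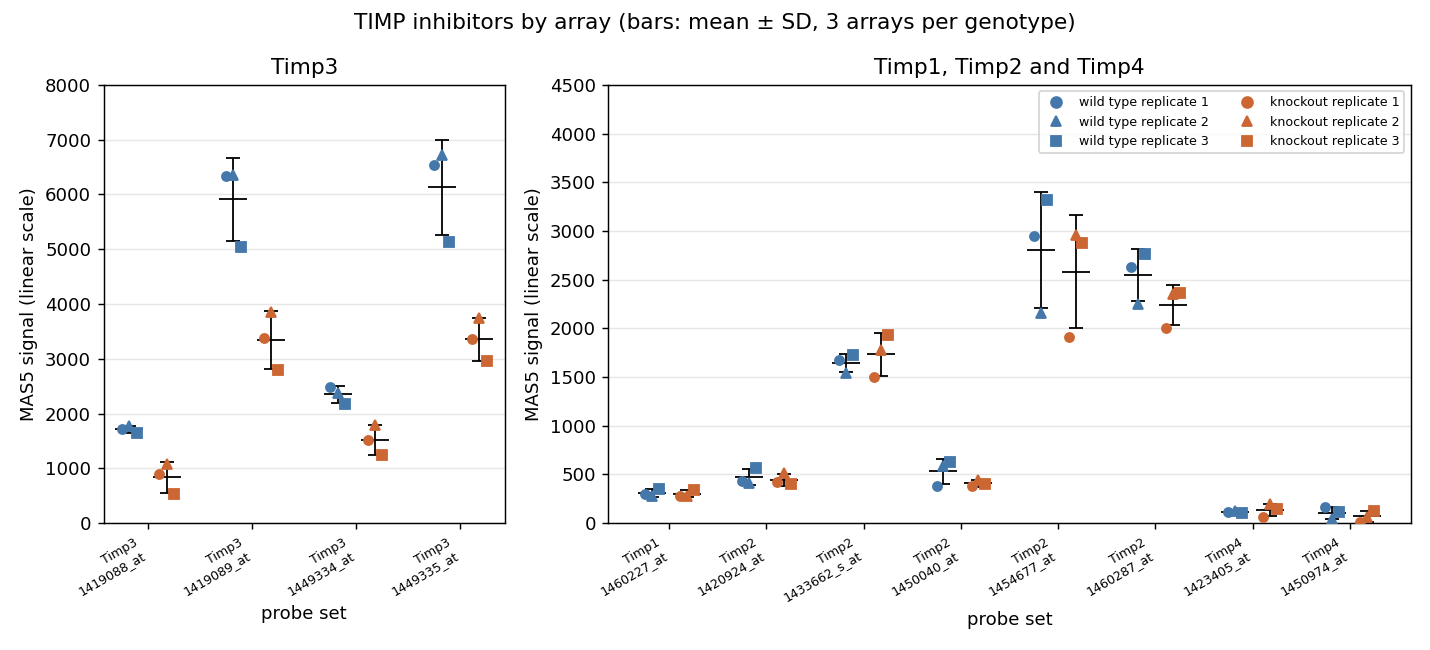
MAS5 signal (y axis, linear scale) of the tested TIMP probe sets (x axis) on each array, wild type in blue and knockout in orange, one symbol per replicate, with black bars for the mean ± SD of 3 arrays. The knockout arrays of Timp3 lie below the wild-type arrays at all 4 probe sets, while the genotypes overlap at every probe set of Timp1, Timp2 and Timp4.

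The other 3 inhibitors overlapped between the genotypes at every tested probe set. Timp1, a secreted inhibitor induced in injury, had signals of 294, 279 and 355 in wild type and 279, 280.3 and 345 in knockout, a difference of −0.038 with a 95% interval from −0.44 to 0.36. Timp2, which also takes part in activating pro-Mmp2 on the cell surface, was read by 5 tested probe sets with differences from −0.35 to 0.069. Its probe set 1460287_at gave 2628, 2252 and 2761 in wild type and 1999.8, 2353 and 2366 in knockout, and its probe set 1454677_at gave 2946, 2155 and 3315 against 1911, 2962 and 2880. Knockout replicate 1 was the lowest array at both. The other 3 tested probe sets of Timp2 read 1673, 1545 and 1727 against 1498, 1778 and 1933, then 382, 588 and 623 against 381, 447 and 399.8, and 433.5, 416 and 569 against 428, 517 and 398. A sixth was under the threshold, at 5.08, 6.26 and 7.40 against 19.9, 7.51 and 17.7. Timp4, an inhibitor with a narrow tissue range, had signals of 118, 124 and 103 in wild type and 66.0, 194 and 146 in knockout at 1423405_at. Its second probe set read 165, 40.1 and 112 against 16.5, 62.6 and 128, a spread within each genotype wider than the difference between them. The TIMP probe sets had a median difference of −0.27, which was −0.080 with 1 probe set per gene and −0.0081 on the arrays free of bacterial control RNA.

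Among the ADAMTS proteases that cut proteoglycans, Adamts5 was higher and Adamts15 lower in knockout lung. Adamts5, a major aggrecan and versican protease, had signals of 214, 216 and 180.3 in wild type and 284, 363 and 355 in knockout at 1422561_at, with no overlap. That was 1.64-fold higher (log2 0.71, SE 0.18, adjusted p = 0.174). At 1450658_at the values were 122, 105 and 84.4 in wild type and 127, 173 and 230.4 in knockout, again without overlap and 1.67-fold higher (adjusted p = 0.322), a difference with an unadjusted p under 0.05 in 8 of 15 alternative settings. The third tested probe set, 1456404_at, read 325, 245 and 230.2 against 269.9, 408 and 372, where knockout replicate 1 lay inside the wild-type range. The fourth was under the threshold, with signals of 0.683 to 22.1. Against wild type replicate 2 alone the 3 tested probe sets differed by 0.62, 0.71 and 0.49. With bacterial control RNA as a term, neither 1422561_at nor 1450658_at kept an unadjusted p under 0.05.

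Adamts15, another proteoglycan-cutting member, read 413, 489 and 388 in wild type and 297, 149.7 and 271 in knockout. All knockout arrays were below all wild-type arrays, 1.87-fold lower (log2 −0.90, SE 0.26, adjusted p = 0.211). Knockout replicate 2 was the lowest, and without it the difference was −0.59. Its neighbour on chromosome 9, Adamts8, a relative with an anti-angiogenic activity, had signals of 105, 156 and 93.7 in wild type and 72.2, 73.6 and 103 in knockout, with overlap. Adamts1, which lies next to Adamts5 on chromosome 16 and cuts versican, had signals of 2360.2, 2505 and 2587 against 2182, 2442 and 2154. Its difference of −0.14 had a 95% interval from −0.36 to 0.081, so the neighbours Adamts1 and Adamts5 gave differences of opposite sign.

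Adamts9 and Adamts4 overlapped between the genotypes. For Adamts9, a broadly expressed versican protease, the brightest probe set read 1546, 2070.3 and 2156 in wild type and 2107, 1931 and 2023 in knockout, and its 3 tested probe sets differed by −0.13 to 0.085. The other two read 329, 543 and 637 against 489.5, 362 and 486, and 155, 142 and 259 against 218, 174 and 139. Adamts4, the other classical aggrecanase, was near the threshold, with 51.8, 35.5 and 84.7 against 64.9, 59.3 and 110.5. Its second probe set was under the threshold, at 4.40, 30.1 and 29.5 against 7.72, 32.1 and 30.2. Adamts20, a protease of pigment cell development, lay under the threshold in its mean, at 38.6, 35.8 and 31.96 in wild type and 64.2, 64.5 and 63.5 in knockout. Those genotypes did not overlap, but a probe set this dim was not tested. In all, 10 probe sets of 6 proteoglycan-cutting genes were tested, 5 lower and 5 higher, with a median of 0.024.

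The remaining ADAMTS proteases showed 1 gene with an unadjusted p under 0.05. Adamts10, which binds fibrillin microfibrils, gave 1635, 1463 and 1467 in wild type and 940.3, 1258 and 963 in knockout at 1427139_at. This was 1.45-fold lower without overlap (log2 −0.54, SE 0.13, adjusted p = 0.161). On the arrays free of bacterial control RNA it differed by −0.49, and its unadjusted p was above 0.05. At its second probe set, 1441309_at, the signals of 216, 135 and 188 overlapped with 193, 185 and 124, and the difference was −0.11. Adamts3, a procollagen N-proteinase, had 115, 136 and 141 in wild type and 149, 150.4 and 229 in knockout. Those arrays did not overlap, but the gap between the groups was small beside their spread, and the difference of 0.40 had an interval from −0.17 to 0.98. A second Adamts3 probe set under the threshold read 5.37, 45.0 and 48.0 against 33.1, 33.8 and 34.9. Adamts12, which cuts cartilage oligomeric matrix protein, was at 673 ± 56.5 (SD, n = 3) and 542 ± 107, with overlap. Its relative Adamts7 was at 115 ± 31.6 and 119 ± 39.95, and Adamts6, related to Adamts10, at 131 ± 14.8 and 146 ± 19.3. Adamts16 was at 77.9 ± 59.98 and 114 ± 51.8, with overlap.

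Of the ADAMTS-like proteins, Adamtsl4 was lower in knockout. Adamtsl4, a fibrillin-binding protein best known from the lens suspensory fibres, gave 515, 375 and 429 in wild type and 210.2, 294 and 298 in knockout, or 1.65-fold lower (log2 −0.72, SE 0.20, adjusted p = 0.192). With bacterial control RNA as a term or on the arrays free of it, the difference was −0.51 and its unadjusted p was above 0.05. Adamtsl2, which also binds fibrillin and whose loss disturbs the airways, read 1109, 1071 and 1015 against 654, 1099 and 791, where knockout replicate 2 lay in the wild-type range. Adamtsl5 was contradictory. At 1420336_at its signals were 98.6, 124 and 128 in wild type and 149, 157 and 135 in knockout, and at 1438266_at they were 86.5, 91.4 and 74.2 against 34.0, 74.1 and 71.3. Neither pair overlapped, and the signs were opposite, so no direction can be given for this gene. Adamtsl1 and Adamtsl3 differed by −0.070 to 0.13 at 3 tested probe sets, all with overlap. The 7 tested ADAMTS-like probe sets had a median of −0.070.

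**Figure D4:**
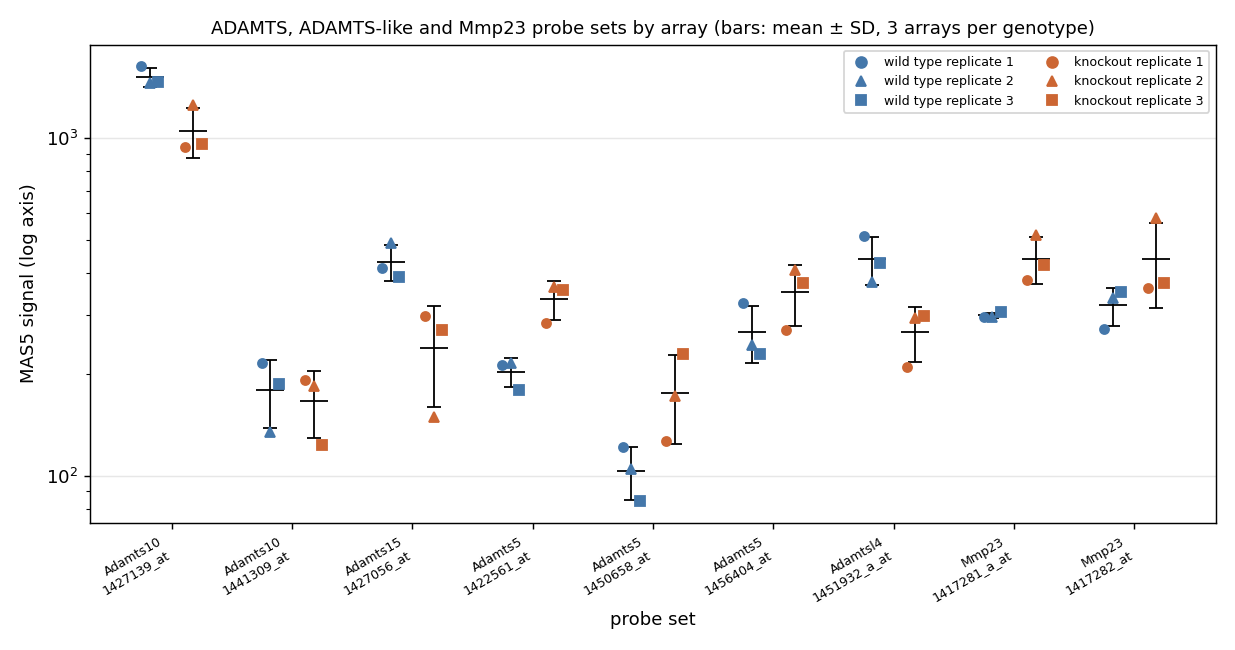
MAS5 signal (y axis, log scale) of the tested probe sets (x axis) of Adamts10, Adamts15, Adamts5, Adamtsl4 and Mmp23 on each array, wild type in blue and knockout in orange, one symbol per replicate, with black bars for the mean ± SD of 3 arrays. Adamts15, Adamtsl4 and the brighter Adamts10 probe set lie lower in all 3 knockouts, 2 of 3 Adamts5 probe sets and both of Mmp23 lie higher in all 3, and the remaining 2 overlap.

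Among the MMPs, Mmp23 was higher in knockout and the main matrix proteases of the developing lung overlapped. Mmp23, a membrane-anchored protease of unusual domain structure, had signals of 297, 295 and 305 in wild type and 381, 518 and 421 in knockout at 1417281_a_at. It was 1.46-fold higher (log2 0.55, SE 0.16, adjusted p = 0.219). With bacterial control RNA as a term or on the arrays free of it, the difference was 0.56 and its unadjusted p was above 0.05. The second probe set gave 273, 336 and 351 against 361, 582 and 374, also without overlap, with a difference of 0.43. Mmp14, the membrane protease that activates pro-Mmp2 and is needed for alveolar development, read 2204, 1809 and 2113 in wild type and 1749.5, 1896 and 2077 in knockout at 1448383_at. Its 3 probe sets differed by −0.11 to −0.070, with a 95% interval from −0.36 to 0.16 at 1448383_at. The other two read 1066, 717 and 1182 against 854, 941 and 901, and 287, 288 and 223 against 341, 202 and 231. The other membrane-bound members Mmp16, Mmp17 and Mmp24 differed by −0.17, 0.28 and 0.48 at 1 tested probe set each, all with overlap. A further Mmp24 probe set, far under the threshold and not tested, read 17.2, 17.7 and 24.6 in wild type and 2.69, 3.20 and 2.77 in knockout.

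The gelatinases, which cut denatured collagen and basement membrane collagen, also overlapped. For Mmp2 the signals were 2341, 2212 and 2572 in wild type and 1409.7, 2229 and 2625 in knockout at 1416136_at. At 1439364_a_at they were 2369, 2413 and 2794 against 1471, 2219 and 2579.8. Knockout replicate 1 stood well under the other 5 arrays at both probe sets, and the differences were −0.23 and −0.31. Mmp9 had signals of 254, 124 and 92.3 in wild type and 252, 155 and 144 in knockout at its tested probe set. Its second was under the threshold, at 17.3, 86.3 and 24.0 against 68.4, 30.1 and 22.8. Mmp8 read 268, 247 and 229 against 400.2, 283 and 252. The highest Mmp8 signal, and the second highest of Mmp9, fell on knockout replicate 1, where the sum over 7 neutrophil markers was 48128. That sum was 6588 to 20855 in wild type and 12015 and 14820 on the other knockouts. Mmp9 was highest on wild type replicate 1, where the sum was 13016. The sum of 20855 fell on wild type replicate 2, where Mmp8 read 247 and Mmp9 124. All 7 markers lay above the threshold, and the part of neutrophils in these signals was not tested. Mmp11, a stromelysin of the mesenchyme, was at 560.3 ± 221 and 451 ± 65.6, and Mmp19 differed by −0.41 and −0.17 at its 2 probe sets, all with overlap.

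Among regulators of these proteases, the list of AP-1 and ETS transcription factors, which act on many MMP and TIMP promoters, had 10 tested members of 13, and all 10 were lower in knockout, with a median of −0.25. Over all tested probe sets 47.33% were lower. An unadjusted p under 0.05 was reached by 4 of the 10, where the background for lower probe sets is 6.31%, and none passed the adjusted threshold. Jun read 3931, 3514 and 3551 in wild type and 2459.6, 2656 and 2471 in knockout (log2 −0.53, adjusted p = 0.0934), and Fos read 930.1, 919.8 and 769 against 499.6, 662 and 573 (log2 −0.60, adjusted p = 0.160). Both are subunits of AP-1, and neither overlapped between the genotypes. In the windows searched above, the ETS motif was in 0 of 30. An AP-1 match was in 0 of the 17 tested member genes with a window, Timp3 among them. The part of these factors in the member differences was not tested. Fosl2 and Ets1 differed by −0.31 and −0.26. Among 12 other activators and inhibitors of MMPs, 6 were lower and 6 higher. The membrane-anchored MMP inhibitor Reck was at 2369 ± 25.0 and 1967 ± 95.3 (log2 −0.27, adjusted p = 0.261), and Lrp1, an endocytic receptor that clears MMPs and TIMPs, at 1432 ± 196 and 1089 ± 114 (adjusted p = 0.274). Furin, which activates many of the proenzymes, differed by −0.091.

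The counts of other protease lists at an unadjusted p under 0.05 stand beside a background of 13.6% in either direction. Of 11 ADAM proteases 6 were lower and 5 higher, and only Adam28 had an unadjusted p under 0.05, at 88.1 ± 24.8 and 199 ± 54.1. Adam17, a sheddase that Timp3 inhibits, was at 1862 ± 188 and 1700 ± 71.6 with overlap. The procollagen C-proteinase Bmp1 was at 649.9 ± 44.6 and 524 ± 12.9 (log2 −0.31, adjusted p = 0.321), and the other 4 tolloid and meprin genes were under the threshold. None of 4 tested plasminogen activation genes reached an unadjusted p under 0.05. In a list of 8 genes, the cathepsins and their inhibitor Cst3, 3 were lower and 5 higher. Of these Ctsz was higher (8068 ± 1316 and 9871 ± 765) and Ctss lower (3237 ± 315 and 2745 ± 157) at that level. The thrombospondin-repeat relative Thsd4 was at 116 ± 17.0 and 166 ± 33.1.

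Transcripts of the proteins that these enzymes cut differed in both directions. Of 21 tested matrix substrates 10 were lower and 11 higher, with 5 in each direction at an unadjusted p under 0.05 and 0 past the adjusted threshold. The 5 lower ones were the elastin gene Eln, the fibronectin gene Fn1 and the basement membrane collagens Col4a1, Col4a2 and Col4a3. The background at that level is 6.31% lower and 7.32% higher. The 5 higher ones were the small proteoglycans lumican (Lum) and decorin (Dcn), versican (Vcan) and the fibrillar collagens Col1a1 and Col3a1. Lum read 247, 526 and 176 in wild type and 783, 1478 and 3041 in knockout (log2 2.42, adjusted p = 0.130), the largest difference of the 5. Dcn differed by 1.39, with overlap, Col1a1 by 0.54 and Col3a1 by 0.31. For Vcan, a substrate of Adamts5, Adamts1 and Adamts9, the signals were 583, 899 and 1004 in wild type and 1379, 1497 and 2182 in knockout (log2 1.03, adjusted p = 0.139), without overlap. All 5 higher substrates were highest on knockout replicate 3, the array with the high cartilage and muscle markers. Col4a3, a collagen of the alveolar basement membrane, read 1030.3, 675 and 803 against 302, 321 and 192 (log2 −1.64, adjusted p = 0.0852). Eln read 20642, 19901 and 16494 against 10677, 13184 and 10966 (log2 −0.71, adjusted p = 0.0934).

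Several cell type marker lists were lower in knockout alongside Timp3. Over all tested probe sets an unadjusted p under 0.05 was reached by 6.31% in the lower and 7.32% in the higher direction. Alveolar type I markers were lower in 10 of 10, 8 of them at an unadjusted p under 0.05, with summed signals of 116987 to 156234 in wild type and 78132 to 99234 in knockout. Endothelial markers were lower in 8 of 9, 6 of them at that level, with sums of 19565 to 22679.5 and 15128 to 17378. Mesothelial markers were lower in 4 of 5, with sums of 7454 to 8586 and 4709 to 6847. All measured members of these 3 lists lay above the threshold. All 3 sums were lowest on knockout replicate 3, the array with the high cartilage and muscle markers, as were Timp3 and the type II sum. Within wild type the lists parted: Timp3 was lowest on replicate 3 at all 4 probe sets. There the type I sum was also the lowest of wild type, but the endothelial and mesothelial sums were the highest. Type II markers were lower in 7 of 9, 4 of them at that level, with the sums overlapping between the genotypes, and ciliated cell markers higher in 7 of 7, 6 of them at that level, with sums of 12502 to 14176 and 18619 to 19797. Fibroblast markers were lower in 5 of 9, with sums of 55853 to 57257 and 52417 to 58915, and smooth muscle and pericyte markers higher in 7 of 9, with sums of 14980.2 to 16271 and 16029 to 18658. In whole lung RNA fewer cells of a type and less transcript per cell cannot be told apart, and the part of these cell types in the Timp3 difference was not tested.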

How the data were processed

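Total RNA of mouse lung, in 6 labelled samples, was measured on Affymetrix Mouse Genome 430 2.0 arrays, 1 array per sample. The deposited values are intensity values on a linear scale, made by the authors with MAS5, which the submitters' processing notes name without a version. Every array had a trimmed mean of 500 (2% cut from either tail), and no further normalization was applied. Detection calls were not used here, and the number of arrays limits the precision.

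Gene symbols came from the platform annotation and were updated by gene ID through RefSeq (GRCm38.p6). A single symbol was given for 34945 probe sets, several for 932 and none for 9160, and 64 control probe sets were left out. Signals were taken to log2 without an offset, since none was 0 or below. The 27022 probe sets above the 40th percentile of mean log2 signal were fitted with limma 3.58.1 in R 4.3.3 (lmFit, eBayes with an intensity trend, two-sided, difference of knockout from wild type). The p-values were adjusted over all of them by the Benjamini-Hochberg method with a threshold of 0.05. The fit was tested on simulated data with 200 changed probe sets per run. At the adjusted threshold it recovered 0% of 1.5-fold, 31.3% of 2-fold and 79.2% of 4-fold changes. A member above that threshold is therefore not shown to be unchanged. The simulation took the observed spread of each probe set as its true spread and changed few probe sets. The recovered shares may thus differ from those in the real data. For lists of other genes the probe set of highest mean stood for the gene. Means are given ± SD over 3 arrays. Members and lists were chosen with earlier results of these data known. Named with values on each array were members with an unadjusted p under 0.05, the TIMPs and a set of collagen, elastin and versican proteases, and other members were added to account for the whole group. From each list at most 4 genes of smallest p under 0.05 were to be named, and genes beyond that (Furin, Adam17, Thsd4, Plg, A2m, Vcan, Dcn, Fn1, Col1a1, Col3a1 and Col4a1) were chosen after their values were seen. Same-numbered replicates were not paired. Alternatives were another normalization, filter, offset and variance model, sex as read from the arrays, bacterial control RNA or replicate number as a term, and leaving out arrays.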

Additional observations from a re-analysis of the deposited data

How the results depend on the processing

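All 10 member probe sets with an unadjusted p under 0.05 kept their sign in each of the 16 alternatives in which they were tested. None of the 10 overlapped between the genotypes, so leaving out arrays could not have reversed a sign. Another filter or variance model leaves the difference itself unchanged, so the kept signs are no independent support. Of the 10, 1 passed the adjusted threshold in 1 alternative. It was Timp3 at 1449335_at under robust eBayes (adjusted p = 0.0483, range over its alternatives 0.0483 to 0.366), so that 1 member passed there. Over all probe sets the count of 8 became 0 without an intensity trend or with the replicate block, 40 with robust eBayes, 4 with sex as a term, 2 with bacterial control RNA as a term and 3 on the arrays without it, and lay between 0 and 13 with 1 array left out. Leaving out knockout replicate 1 gave 13 and leaving out wild type replicate 2 gave 2, while each of the other 4 arrays left out gave 0. With bacterial control RNA as a term 4 of the 10 no longer had an unadjusted p under 0.05, both probe sets of Adamts5, Adamtsl4 and Mmp23, which are all 3 higher ones and 1 lower one. On the arrays without it 4 of the 10 were also above it, Adamts10, Adamts5 at 1450658_at, Adamtsl4 and Mmp23. The replicate block left 9 of the 10 member probe sets at an unadjusted p under 0.05 and 0 past the adjusted threshold, and deviations of same-numbered arrays had correlations of −0.136, −0.38 and −0.0056. Between differently numbered arrays the correlation was 0.374 for wild type replicate 2 with knockout replicate 1. It was 0.315 for wild type replicate 3 with knockout replicate 2, and −0.267 to 0.094 for the other pairs. The count of higher members, 3, ranged from 2 to 5 with 1 array left out, with 5 without knockout replicate 1.

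Family medians were small and moved. For the MMPs the median of −0.097 became 0.084 with bacterial control RNA as a term or on the arrays without it, 0.089 with 1 probe set per gene (a setting chosen after seeing the data) and −0.083 to 0.0063 with 1 array left out. For the ADAMTS genes 0.035 became 0.28 with that RNA as a term or on the arrays without it, 0.19 without a filter, −0.14 with a filter at the 60th percentile and −0.089 to 0.17 with 1 array left out. For the ADAMTS-like genes −0.070 became −0.36 with the stricter filter, −0.24 with that RNA as a term or on the arrays without it, −0.22 without a filter and −0.23 to 0.014 with 1 array left out. For the TIMPs −0.27 became −0.0081 with that RNA as a term or on the arrays without it, −0.080 with 1 probe set per gene and −0.32 to −0.075 with 1 array left out, the last without knockout replicate 1. The cause of these shifts was not tested. With 1 wild-type array free of bacterial control RNA, the fit on those arrays takes its spread from the knockouts. The number of arrays and dim signals limit what the untested probe sets can show.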

Other observations

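Timp1, Timp3 and Timp4 lie within the spans of the synapsin genes Syn1, Syn3 and Syn2 in RefSeq's GRCm38.p6 gene table. Synapsins are proteins of nerve terminals. At the Syn3 probe set 1435310_at the signals were 118, 106 and 46.2 in wild type replicates 1 to 3 and 126, 71.9 and 66.5 in knockout replicates 1 to 3, with a difference of 0.021 and a 95% interval from −0.98 to 1.03. At 1435311_s_at they were 83.0, 63.1 and 53.4 against 61.4, 58.2 and 58.2, with a difference of −0.14 and an interval from −0.93 to 0.64. Both lie close to the threshold of 59.7, and their intervals hold differences as large as that of Timp3 at 1449335_at. The Syn3 probe set 1421248_at was under the threshold, at 15.2, 58.4 and 47.1 against 19.2, 51.7 and 25.6, and the probe sets of Syn1 and Syn2 were under it.

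Mast cell and basophil markers were higher in 8 of 8 tested members, with summed signals of 3567 to 4391 in wild type and 5258 to 10983 in knockout. Of the 8, 4 had an unadjusted p under 0.05, where the background for higher probe sets is 7.32%. Mcpt8, 1 of these 4, passed the threshold only through its knockout signals. It read 34.3, 21.2 and 27.4 in wild type and 181, 123 and 147 in knockout. Mcpt4 was under the threshold and not tested. Macrophage markers were higher in 7 of 10, with sums of 7164 to 8956 and 8436 to 10216. At an unadjusted p under 0.05, 4 of the 10 were higher and 1, Marco, was lower (background 7.32% higher and 6.31% lower). The macrophage elastase Mmp12 stayed under the threshold in both genotypes.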
